A study of Mus musculus with 4 samples.

Results

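The comparison described here is Neat1 knockdown in HT22 cells in normal culture. It set 1 library of cells infected with a lentivirus directed at Neat1 against 1 library of cells that carried a control negative lentivirus, both grown in DMEM/F12 with 10% FBS. HT22 is an immortalised mouse hippocampal neuronal line, labelled here with the strain C57BL/6. Both libraries therefore came from lentivirus-infected cells, and no uninfected culture was analysed here. The other 2 of the 4 libraries held the same pair of lentiviruses in cells deprived of oxygen and glucose (OGD), and they are used here for comparison. The sequence carried by the lentivirus, the time after infection and the number of cultures behind a library are not stated in the sources used here. Each gene was given the log2 ratio of knockdown to control, computed from size-factor scaled read counts with 10 added to each. Of 20089 genes, 14525 reached at least 20 scaled reads in the higher library of the normal pair and were compared. Genes that reached this floor in only 1 library could only come out higher in that library. A gene is called higher or lower at a 2-fold ratio, by size alone and without a test, because each group holds 1 library. The 584 genes that were 2-fold lower in normal culture and 2-fold higher under OGD by the same formula are reported apart, and the other 13941 are called the remaining genes.

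Neat1 is a long noncoding RNA that scaffolds paraspeckles, nuclear bodies that hold a set of RNA-binding proteins and some RNAs. It has a short and a long isoform, of which the long one is needed to build the body. Paraspeckles grow in number and size in many kinds of cell stress.

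The 4 libraries held between 17232866 and 20764430 reads assigned to genes. Values are given below in a fixed order: the control and then the knockdown library of normal culture, and the same under OGD. Folds are ratios of scaled reads with nothing added, so they are larger than the log2 ratio for low genes. Their intervals are 95% exact conditional binomial intervals and cover counting error only, since reads carried no molecular identifiers and no group had a replicate. Markers of neurons did not sit alike in the 4 libraries. The 24 neuronal markers summed to 3892, 71.5, 152 and 407 CPM (reads scaled to library total), so the control library of normal culture was far above the other 3. The 10 astrocyte markers summed to 220, 78.9, 224 and 264 CPM, and the 12 oligodendrocyte markers to 359, 84.3, 94.2 and 157 CPM. Of the neuronal markers 0 were at 0 reads in the control library and 2 in the knockdown library, although both are labelled as hippocampal neurons. In bulk RNA, fewer cells of a type and less RNA per cell cannot be told apart. Whether the control library of normal culture also held RNA of cells other than HT22 was not tested, and this bears on every lower value below that rests on that library alone.

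Neat1 itself (ENSMUSG00000092274, chr19:5824708-5845478 on GRCm38, minus strand, a long intergenic noncoding RNA) held 3789, 2592, 1144 and 824 reads. It was lower with its lentivirus in each culture, 1.60-fold in normal culture (1.52 to 1.69) and 1.77-fold under OGD (1.62 to 1.94). Its log2 ratio in normal culture was -0.68, which did not reach the 2-fold rule. The SD of the ratio was 0.45 over the 2063 remaining genes with 2000 or more scaled reads, Neat1's own level, and 1.31 over all 14525 genes. An SD over genes does not measure the spread between libraries of a group, which could not be estimated here. Reads were counted per gene, so the 2 isoforms were not separated. Malat1, the noncoding RNA of nuclear speckles encoded next to Neat1, held 1129, 1799, 1162 and 1355 reads. Its reads in normal culture were 1.45-fold higher in knockdown cells (1.35 to 1.57) and 1.09-fold lower under OGD (1.01 to 1.18).

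With knockdown, 897 genes (6.18% of those compared) were higher and 2378 (16.4%) were lower, and 584 of the lower genes (4.02% of those compared) belonged to the genes set apart. Among the remaining genes 897 were higher (6.43%) and 1794 lower (12.9%). Their log2 ratios had quartiles of -0.42 and 0.32 around a median of -0.0017. The 2-fold calls were mostly genes of low or middle level. In the lowest class of remaining genes, from 20 to below 50 scaled reads, 22.2% were higher and 33.4% lower. Among the 2063 remaining genes with 2000 or more scaled reads, 11 were higher (0.533%) and 55 lower (2.67%). The genes nearest to the threshold were Nox1 at 1.0002 inside and Baz2b at 0.9997 outside it among higher genes, and Arl15 at -1.002 inside and Ugt1a2 at -0.9997 outside it among lower genes.

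**Figure D1:**
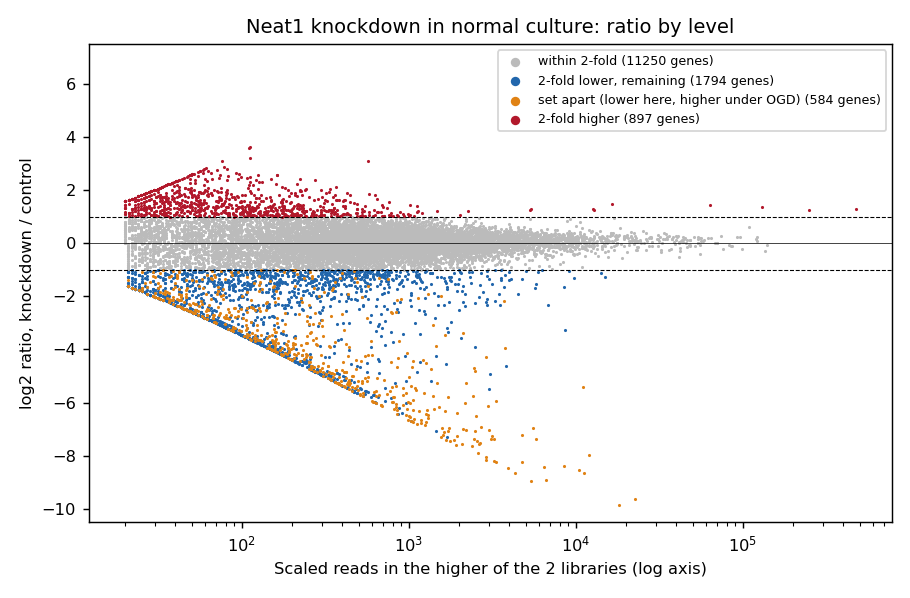
Log2 ratio of knockdown to control in normal culture (vertical axis) against the scaled reads in the higher of both libraries (horizontal, log axis) for 14525 genes, 1 point a gene. Dashed lines mark 2-fold. The 897 higher genes are mostly at the left, and the 584 genes set apart reach the lowest ratios, down to -9.86.

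The genes set apart were led by transcripts of neurons. Pcsk1n, a neuroendocrine peptide precursor that restrains a prohormone convertase, held 17385, 10, 16 and 181 reads, and its log2 ratio in normal culture was -9.86. Nrgn, a postsynaptic calmodulin-binding protein, held 21469, 19, 42 and 449 reads. For both genes the control library of normal culture was the highest of the 4 and the knockdown library under OGD came next. Cck (a neuropeptide), Cdk5r2 (an activator of the kinase CDK5), Adgrb1 (an adhesion receptor), Ddn (dendrin of dendrites), Ckb (brain creatine kinase), Nrxn2 (a presynaptic adhesion protein), Agap2 and Fbxl16 had log2 ratios between -8.94 and -8.40. Over the 584 genes the median was -3.55. Of the 23 neuronal markers that reached the floor, 19 were set apart. These values restate how the genes were chosen. In 343 of the 584 (58.7%) the control library of normal culture was also at least 2-fold above both OGD libraries.

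**Figure D2:**
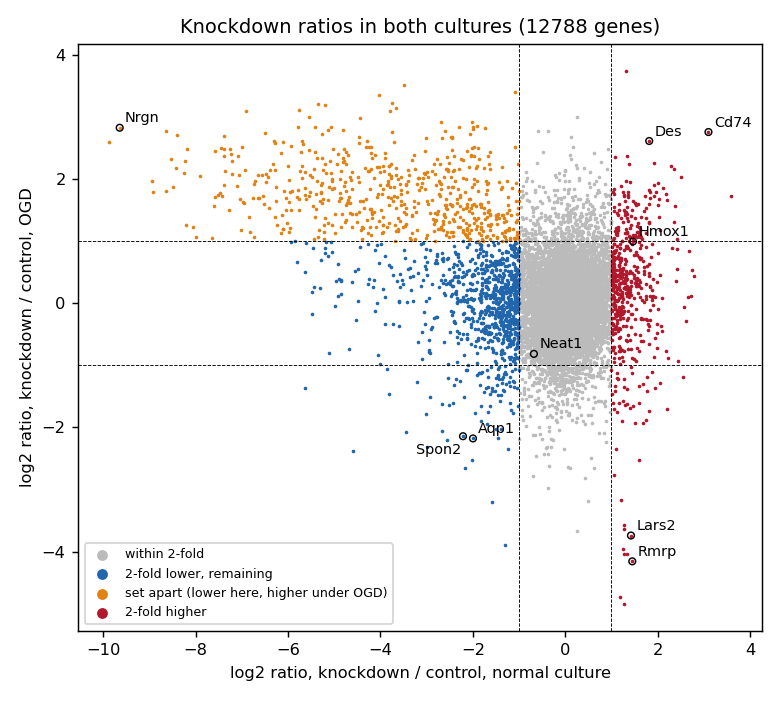
Log2 ratio of knockdown to control in normal culture (horizontal) and under OGD (vertical) for the 12788 genes that reached the floor in both pairs, which share no library. Dashed lines mark 2-fold. Genes set apart fill the upper left by their definition, Cd74 and Des lie at the upper right, Spon2 and Aqp1 at the lower left, and Lars2 and Rmrp at the lower right.

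Setting those genes apart did not leave the remaining lower genes free of brain-type transcripts. The lowest was Olig1, a transcription factor of the oligodendrocyte lineage, with 1622, 1, 2 and 16 reads and a log2 ratio of -7.29. Its OGD pair did not reach the floor, so it was not among the genes set apart. Egr4, an activity-regulated transcription factor, held 978, 0, 7 and 10 reads, which made it at least 358-fold lower against a floor of 3 reads. Neurod2, a neuronal basic helix-loop-helix factor, held 915, 5, 0 and 11 reads. In each of these genes the control library of normal culture stood alone. The other named lowest genes, between -7.07 and -5.73, were Vstm2l, Sowaha, Fcho1, Unc5a (a netrin receptor), Cacng8 (an auxiliary subunit of AMPA receptors), Pou3f1, Caly, Shank2 (a postsynaptic scaffold), Mmp17, Bcl11b, Lrfn1 and Rprml. For 1138 of the 1794 remaining lower genes (63.4%) the control library of normal culture was at least 2-fold above both OGD libraries as well as above the knockdown library. The other 656 were not of that kind. What part the neuronal markers' difference between the libraries had in these ratios was not tested.

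Genes of ion channels and neurotransmitter receptors were mostly high in the control library of normal culture alone. The lists and families that follow were read against the 6.43% of remaining genes that were higher and the 12.9% that were lower. Of 39 remaining potassium channel genes, 29 were lower and 3 higher, and 26 of the 29 were high only in the control library. Of the 29, 27 reached the floor only through that library, where they could only come out lower, so these counts are a description of that library and no support for a lower family. The median was -2.49. It was -3.77 with the 18 members that had 0 reads in a library at their bound against 3 reads, -1.496 with 50 added and -1.11 without a floor. Kcnk1, a leak channel, held 316, 1, 2 and 15 reads, and Kcns1, a silent subunit of voltage-gated channels, held 249, 0, 2 and 2. Of 18 sodium and calcium channel genes 12 were lower and 0 higher, 9 of the 12 high only in the control library. Among them was Cacna1h, a low-threshold calcium channel, with 382, 0, 0 and 13 reads. Their median was -1.77, or -2.19 with members at 0 reads at their bound, but -0.91 with 50 added and -0.48 without a floor, both under 2-fold. Of 12 glutamate and GABA receptor genes 9 were lower and 0 higher, and all 9 reached the floor only through the control library. The receptor median of -3.04 was -3.78 at the bound, -1.37 with 50 added and -0.95, under 2-fold, without a floor. Grin2c, an NMDA receptor subunit, held 295, 0, 3 and 10 reads. Families were drawn by name pattern, and without names that encode no member 28 of 37 potassium channel, 12 of 17 sodium and calcium channel and 9 of 11 receptor genes were lower. A further 17 potassium channel, 9 sodium and calcium channel and 10 receptor genes had been set apart. Of 8 remaining oligodendrocyte markers 5 were lower, all 5 past the floor only in the control library, with Olig2 at 263, 0, 0 and 6 reads and the myelin gene Mag at 157, 1, 7 and 28. The 35 remaining clustered protocadherins had a median of -0.45, 34 of them below 0, with 9 lower and 1 higher by the rule. Pcdhac2 held 148, 0, 1 and 19 reads, and the exception, Pcdhb16, held 1, 51, 17 and 4. All 9 lower protocadherins, and 10 of the 35, reached the floor only through the control library of normal culture, where they could only come out lower. Pcdhb16 reached it only through the knockdown library.

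In Notch signalling, ligands on 1 cell activate receptors on a neighbour, and the cut receptor switches on genes of the Hes and Hey families. Of 25 Notch genes compared, none of them set apart, 12 were lower and 1 higher, and the median was -0.73. The ligand gene Jag2 held 373, 24, 31 and 28 reads, 17.0-fold lower with knockdown in normal culture. Among targets, Hes5 held 201, 0, 1 and 5 reads (at least 73.5-fold lower) and Hey1 held 353, 38, 42 and 98 (10.2-fold lower). Dtx1, a ubiquitin ligase that modulates Notch, held 537, 16, 2 and 13 reads. In all of these the control library of normal culture was above the other 3, and 8 of the 12 lower Notch genes were high only there. Of the 12, 7 reached the floor only through that library, where they could only come out lower, so the count is no support for a lower pathway. Numbl, an adaptor that restrains Notch, was not of that kind, with 1901, 803, 1681 and 1274 reads.

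In Wnt signalling, secreted ligands stabilise beta-catenin, which turns on feedback genes such as Axin2. Of 28 Wnt genes 8 were lower and 2 higher (median -0.35). The ligand genes Wnt7b (137, 1, 1 and 15 reads) and Wnt10a (104, 1, 0 and 1) were lower, as was the secreted inhibitor Sfrp1 (110, 0, 0 and 2). Axin2 held 67, 4, 14 and 6 reads. For 6 of the 8 lower Wnt genes the control library of normal culture stood alone. Likewise 6 of the 8 reached the floor only through that library. Among 26 TGF-beta and BMP genes 5 were lower and 3 higher, and the median of 0.02 took the other sign with total reads, with FPKM, without a floor and with a floor of 100. Of the 5 lower genes, 4 reached the floor only through the control library of normal culture. The BMP antagonist Chrd held 151, 0, 35 and 45 reads and the pseudoreceptor gene Bambi 69, 0, 37 and 35. For both, the knockdown library of normal culture was the low one of the 4 while the OGD pair did not differ by 2-fold. Tll1, a protease that cleaves chordin and procollagen, went the other way with 3, 117, 0 and 9 reads. Id4, an inhibitor of helix-loop-helix factors, held 342, 16, 21 and 7.

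A few genes of connective tissue and matrix with high read counts were lower, while the collagen and matrix list as a whole had a median near 0. Col3a1, a fibrillar collagen chain, held 9278, 4068, 7204 and 4867 reads, 2.50-fold lower in normal culture. S100a4, a calcium-binding protein of motile mesenchymal cells, held 13551, 6825, 5997 and 3200 reads, 2.18-fold lower. Col1a2 held 2577, 1280, 397 and 259 reads and was 2.21-fold lower, a call lost with FPKM (log2 ratio -0.88). In each of the 3 the knockdown library was below its control in both cultures. For S100a4 and Col1a2, but not Col3a1, the control library of normal culture was also at least 2-fold above both OGD libraries. All 10 remaining fibroblast and mesenchymal markers were below 0, 3 of them by 2-fold, with a median of -0.37 in normal culture and -0.71 under OGD. The 13 measured markers summed to 15552, 11684, 15021 and 12397 CPM, less in the knockdown library of each pair. Of 32 collagen and matrix genes 6 were lower and 2 higher (median -0.05). The lower members of that list included Col6a2 (561, 180, 348 and 165 reads) and Col6a3 (67, 8, 77 and 27), chains of the same beaded-filament collagen. Col7a1, the anchoring-fibril collagen, was higher with 34, 115, 28 and 87 reads. Among 26 proteases and inhibitors 3 were lower and 1 higher, with Timp3, a matrix-bound metalloprotease inhibitor, at 339, 84, 140 and 248 reads and Serpinb2, an inhibitor of plasminogen activators, at 4, 52, 55 and 52. The chemokine gene Cxcl12 held 5530, 2098, 2164 and 2201 reads, so the control library of normal culture was the high one.

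The highest remaining genes with knockdown came from several functions. Dusp2, a nuclear phosphatase of MAP kinases, held 0, 116, 14 and 85 reads, at least 35.2-fold higher in normal culture and 4.76-fold under OGD (2.69 to 9.08). Tll1 followed at 35.6-fold, with a wide interval (11.9 to 175) because its control library held 3 reads. Cd74, the MHC class II invariant chain, held 55, 596, 38 and 393 reads, 9.88-fold higher in normal culture (7.49 to 13.3) and 8.11-fold under OGD (5.80 to 11.6). In Cd74 both knockdown libraries lay above both control libraries, and in Dusp2 they did too. Asb5, a substrate adaptor of a ubiquitin ligase, held 18, 170, 16 and 15 reads, and Angptl4, a secreted inhibitor of lipoprotein lipase, held 74, 385, 16 and 18. In these 2 genes the knockdown library of normal culture was alone in being high. Zfp566 (32, 235, 75 and 45 reads), Zfp40 (25, 168, 9 and 8) and Zfp112 (17, 114, 30 and 25) encode zinc finger proteins. Their family as a whole had a median of -0.05 over 306 genes, with 36 higher and 52 lower, a median that turned to 0.03 with a floor of 100. Matn3, a cartilage matrix protein, held 17, 123, 8 and 57 reads. Chrnb1, an acetylcholine receptor subunit, held 36, 223, 213 and 143, so its control library of normal culture was the low one. Tmem86b, Olfr613 and Proser2 completed the 15 with the histone genes Hist1h4h and Hist4h4, at log2 ratios of 2.58, 2.10, 2.05, 2.57 and 2.42.

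Few higher genes had high read counts. Of the 11 with 2000 or more scaled reads, 2 encode proteins of known stress or xenobiotic responses. Hmox1, the inducible haem oxygenase, held 5709, 17312, 23559 and 59907 reads, 2.76-fold higher in normal culture. Cyp1b1, a cytochrome P450 induced through the aryl hydrocarbon receptor, held 5224, 13521, 3411 and 8719. Both genes were higher with knockdown in each culture. Hmox1 also differed between cultures in both lentivirus arms, and Cyp1b1 was lower under OGD in both. The others of the 11 were Lars2, treated below, and noncoding, clone or predicted genes. Over the NRF2 antioxidant list, to which Hmox1 belongs, the median was 0.25 with 21 of 28 above 0, against 49.9% of all remaining genes above 0. By the 2-fold rule 1 was higher and 1 lower, the latter Gstm1, a glutathione transferase, with 450, 227, 283 and 528 reads.

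Stress lists did not move together. ATF4 and CHOP are transcription factors of the integrated stress response that raise amino acid and redox genes. Of their 27 targets 21 were above 0 with a median of 0.29, 2 were higher and 0 lower. Cth, which makes cysteine from cystathionine, held 34, 146, 266 and 489 reads, 3.91-fold higher (2.68 to 5.87), though with FPKM its log2 ratio was 0.999, just under 2-fold. Stc2, a secreted glycoprotein, held 146, 378, 313 and 360. Fgf21, a secreted metabolic hormone on the growth factor list, held 41, 156, 166 and 258 reads. For these 3 genes the control library of normal culture was the low one, and the OGD pair differed by less than 2-fold. Genes of endoplasmic reticulum chaperones and the unfolded protein response went the other way, with 21 of 29 below 0, a median of -0.24, 1 lower by the rule and 0 higher. The lower member was the co-chaperone gene Dnajb9 (161, 79, 763 and 807 reads). Xbp1, a transcription factor of that response, held 1411, 802, 2067 and 791 reads, with a log2 ratio of -0.94 that became -1.08 with FPKM. Hsp90b1, an abundant chaperone, held 7951, 5325, 7432 and 4995 reads, 1.64-fold lower in normal culture.

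The chaperone list has a known promoter element, ERSE (CCAAT and CCACG with 9 bases between them, searched on both strands), and the 3 sites below are shown because they belong to a chaperone gene at the list's low end, a co-chaperone gene and the best known member. It was found in 8 of the 22 chaperone-list promoters in the RefSeq table (36.4%), which run from 250 bases before to 50 after the start, and in 0.119% of all 32851. The 8 genes with a match had a median log2 ratio of -0.25, near the list's -0.24. Capitals mark the CCAAT and CCACG parts, and coordinates are on GRCm38.p6. The Hsp90b1 site shown is at chr10:86705633-86705661 (minus strand), the Dnajc3 site at chr14:118937822-118937850 (plus strand) and the Hspa5 site at chr2:34772020-34772048 (plus strand). The Hsp90b1 promoter held a further match, not shown, at chr10:86705528-86705556 on the strand opposite to the gene. The genes of the 3 sites shown had log2 ratios of -0.71, -0.66 and -0.12.
Hsp90b1: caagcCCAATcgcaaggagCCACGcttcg
Dnajc3: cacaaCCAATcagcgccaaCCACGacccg
Hspa5: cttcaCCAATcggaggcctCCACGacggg

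Heat shock genes had a median of 0.10 over 19, with 1 lower, Hspa1b (976, 236, 5538 and 13273 reads), a near-identical copy of Hspa1a, so the split of reads between the copies is uncertain. Of 30 hypoxia and glycolysis genes 24 were below 0 (median -0.18), and 4 were lower: Eno2 (652, 263, 1560 and 3247 reads), a neuronal enolase, Ankrd37 (198, 76, 744 and 797), Bhlhe40 (711, 338, 3569 and 7773) and Hk1 (1902, 1029, 3986 and 4598). Hk1, a hexokinase, stood at -1.01, close to the threshold, and at -0.996 with FPKM. All 4 had more reads in each OGD library than in either normal library. Of 30 cholesterol and fatty acid synthesis genes 2 were lower, Hsd17b7 (152, 42, 77 and 62 reads) and Hmgcs1 (410, 217, 282 and 240), the second of which lay under 2-fold with FPKM (-0.98). Among 33 p53 and apoptosis genes 3 were lower and 1 higher (median 0.10, but -0.06 with FPKM). Casp9, a caspase activated on the apoptosome, held 242, 102, 134 and 1 reads, lower with knockdown in both cultures. The inhibitor of apoptosis Xiap held 488, 249, 289 and 476, and Trp53inp1, a p53-induced nuclear protein, held 0, 33, 21 and 41.

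Immune genes showed a few higher members in lists with medians between 0.12 and 0.21. MHC class II molecules display peptides to T cells, CD74 guides their assembly, and NLRC5 drives class I genes. Of 15 genes of antigen presentation 3 were higher and 0 lower (median 0.21). Nlrc5 held 0, 40, 1 and 17 reads, and H2-DMb2 held 9, 34, 26 and 8, which made it higher in normal culture and lower under OGD. In normal culture both genes reached the floor only through the knockdown library. Tap1, the peptide transporter, was the lowest of the list with 368, 266, 242 and 371 reads. Of 20 interferon-stimulated genes 2 were higher and 1 lower (median 0.19). Zbp1, a sensor of Z-form nucleic acid, held 11, 69, 0 and 23 reads, and Usp18, a negative regulator of interferon signalling, held 41, 113, 7 and 24. Both were higher with knockdown in each culture by reads, while Rtp4 was lower with 120, 51, 32 and 30. With FPKM, H2-DMb2 at 0.94 and Usp18 at 0.78 were under 2-fold. Of 17 chemokines and cytokines 4 were higher and 3 lower (median 0.12). Lif, a cytokine of the interleukin-6 family, held 113, 463, 65 and 121 reads, and Ccl5 held 8, 61, 28 and 50. Like Nlrc5 and H2-DMb2, Zbp1 and Ccl5 reached the floor in normal culture only through the knockdown library, where they could only come out higher. Microglia and macrophage markers summed to 82.9, 76.4, 30.2 and 53.5 CPM in the 4 libraries, and 6 of those 10 were at 0 in the knockdown library of normal culture. They did not move together. Of the 5 that reached the floor 1 was higher, Cd68 (71, 212, 239 and 585 reads), and 2 were lower, C1qa (75, 0, 1 and 4) and C1qc (82, 0, 0 and 4). Both lower genes reached the floor only through the control library of normal culture, where they could only come out lower. The median of the 5 was -0.14, but 0.76 with a floor of 100. Among growth factors, Vegfc, the lymphatic endothelial growth factor, held 50, 183, 134 and 246 reads and Artn, a ligand of the GDNF family, held 40, 131, 67 and 93. Igf2 held 140, 0, 2 and 14.

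Replication-dependent histone genes had a median ratio about 2-fold higher with knockdown. Their messages are made in S phase and mostly end not in a poly(A) tail but in a conserved stem-loop that the stem-loop binding protein recognises. Of 57 compared, 29 were higher and 3 lower, and the median was 1.01 with 47 above 0. The median was 0.65 with 50 added, 0.88 without a floor, 1.17 with 1 added and 1.27 with a floor of 100. Ribosomal and signal recognition particle RNAs were also higher in the knockdown library of normal culture, with values given below, and their part in the histone ratios was not tested. Under OGD the 44 that reached the floor had a median of 0.19, with 5 higher and 4 lower. By type, 8 of 12 H3 genes, 7 of 12 H4 genes, 9 of 17 H2A genes, 3 of 12 H2B genes and 2 of 4 H1 genes were higher. The medians were 1.38 for H3, 1.26 for H4, 1.01 for H2A, 0.76 for H2B and 0.33 for H1. Many copies are nearly identical, so the split of reads between single genes is uncertain and the family's count is the firmer value. Hist1h3c held 121, 425, 85 and 270 reads, Hist1h2ag held 94, 370, 28 and 77, and Hist1h3a held 48, 236, 27 and 147. In these 3 the knockdown library was above its control in both cultures. Hist1h4h held 12, 130, 10 and 12 reads and Hist4h4, which lies outside the main cluster, held 19, 157, 19 and 41. Both reached the floor only through the knockdown library of normal culture, where they could only come out higher. The same held for Hist1h4k (1, 26, 2 and 0 reads), Hist1h2ac (17, 79, 8 and 14), Hist1h2aj (11, 52, 4 and 13) and Hist1h2bn (10, 46, 4 and 3). The rest of the 29 higher histone genes reached the floor in both libraries of normal culture. The 47 genes on chromosome 13 had a median of 1.04.

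The stem-loop is shown for these 5 genes and for Hist3h2ba, the lowest of the family, because the element was present on both sides. The sequences come from GENCODE mouse release 21 transcripts (sense strand). Each is the first match found for its gene, and its distance from the end of the transcript was not measured. Capitals mark the motif searched, which is GG, any 2 bases, CTT, any base, T, any base, AG, any 2 bases and CC. It was found in 39 of the 57 histone genes (68.4%) and in 92 of 14393 other genes with a transcript (0.639%). Of the 39, 22 were higher and 1 lower (median 1.02). Of the 18 without a match in the annotated transcript, 7 were higher and 2 lower (median 0.79).
Hist1h4h: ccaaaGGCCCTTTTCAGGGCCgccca
Hist4h4: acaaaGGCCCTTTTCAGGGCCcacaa
Hist1h3a: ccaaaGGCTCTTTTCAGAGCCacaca
Hist1h2ag: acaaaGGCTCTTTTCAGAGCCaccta
Hist1h3c: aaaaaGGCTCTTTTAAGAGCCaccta
Hist3h2ba: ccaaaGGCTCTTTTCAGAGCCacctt

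Hist3h2ba carried the same 16 capitals as Hist1h3a and Hist1h2ag and held 199, 26, 0 and 5 reads, a log2 ratio of -2.65. The other lower histone genes were Hist1h2bc (466, 152, 74 and 71 reads) and Hist1h1b (30, 1, 25 and 8). Hist3h2ba and Hist1h2bc had their highest reads in the control library of normal culture.

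**Figure D3:**
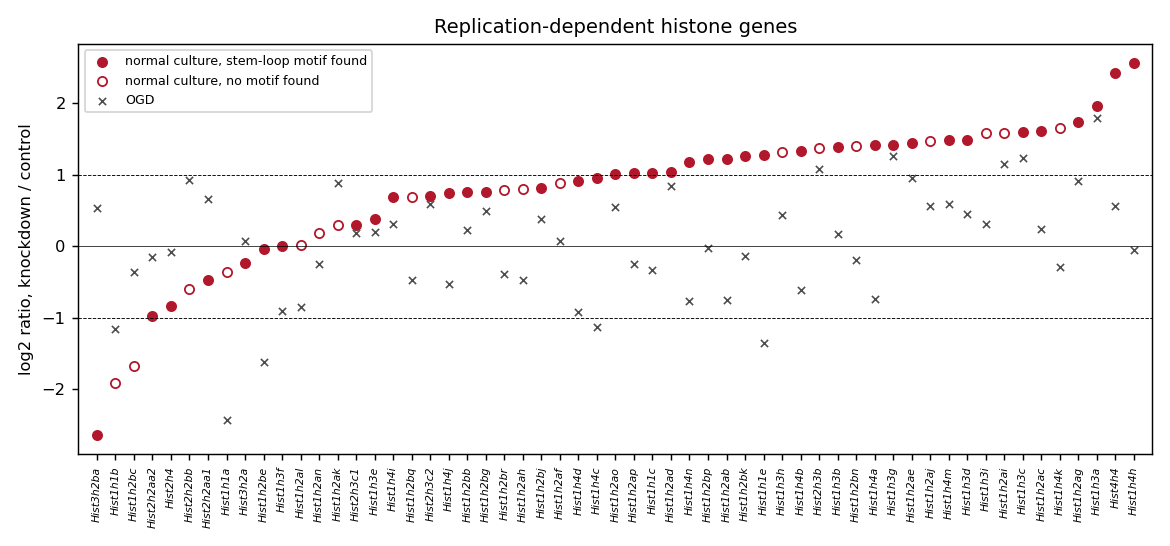
Log2 ratio of knockdown to control for 57 replication-dependent histone genes ordered by their ratio in normal culture (circles, filled where the stem-loop motif was found), with the OGD ratio as a cross. Dashed lines mark 2-fold. In normal culture 29 circles lie above the upper line, from Hist1h2ao to Hist1h4h, while the crosses scatter around 0.

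Histone H4 promoters share a short element near the start, and 3 are shown because these genes include the highest and the lowest ratio among the H4 genes with the element. The motif GGTCCG, searched on both strands and chosen after the data were seen, was present in 10 of the 11 H4 promoters in the RefSeq table (90.9%) and in 8.25% of all 32851. It lay on the gene's own strand in all 10. The Hist1h4h window is chr13:23531027-23531056 (plus strand), the Hist4h4 window chr6:136804446-136804475 (minus strand) and the Hist1h4i window chr13:22041391-22041420 (minus strand), all on GRCm38.p6. Capitals mark the motif. The last gene had the smallest ratio of the 10, 0.68, with 549, 974, 358 and 570 reads. The CRE motif TGACGTCA, a palindrome, was found in the Hist1h4h and Hist1h4a promoters among H4 genes and in 1.79% of all promoters.
Hist1h4h: agtcttcaatcaGGTCCGaaaacactgcat
Hist4h4: tgttttcaatcaGGTCCGctcccaggaaat
Hist1h4i: tgttttcactccGGTCCGcaagttccctat

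Small structured RNAs, also made without polyadenylation, followed the histone messages in normal culture. Of 9 genes for small nuclear RNAs and the RNAs of RNase P and RNase MRP, 7 were higher and 0 lower. Their median was 1.20, but 0.61 with 50 added, 1.0002 without a floor and 1.38 with 1 added. Rmrp, the RNA of RNase MRP, held 348, 1061, 1031 and 63 reads. Rpph1, the RNA of RNase P, held 113, 312, 246 and 0, and Scarna2, a Cajal body RNA, held 7, 39, 41 and 18. In normal culture Scarna2 and Scarna13 (0, 26, 8 and 0 reads) reached the floor only through the knockdown library, where they could only come out higher. Within each culture the library with more of these RNAs changed, being the knockdown library in normal culture and the control library under OGD. Under OGD all 6 genes that reached the floor were lower, with a median of -3.66. Lars2, the mitochondrial leucyl-tRNA synthetase, followed the same order with 22567, 66345, 53024 and 5044 reads. It stood apart from the aminoacyl-tRNA synthetase family, whose 35 remaining members had a median of 0.08 (0.05 over the 41 names that the pattern caught). Within each culture, abundant structural RNAs had the same library higher. The signal recognition particle RNA genes Rn7s1 and Rn7s2 held 2099, 5532, 4904 and 516 reads and 2136, 5683, 4984 and 502. The mitochondrial ribosomal RNA genes mt-Rnr1 (5806, 11111, 16989 and 13826 reads) and mt-Rnr2 (8244, 17633, 19989 and 11356) were higher by less than 2-fold, with log2 ratios of 0.80 and 0.96. Gm42418 (100676, 262447, 251915 and 20579 reads), AY036118 (48954, 136541, 126903 and 9849) and Gm26917 (4927, 13326, 12413 and 5080), loci known to take up ribosomal RNA reads in mouse libraries, had log2 ratios of 1.25, 1.35 and 1.30. How far ribosomal RNA was removed, or poly(A) RNA selected, in each library is not stated in the sources used here, and the part of these RNAs in the histone, small RNA and Lars2 ratios was not tested.

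Several lists had no or few 2-fold members. Of the 28 genes for paraspeckle proteins 0 were higher and 0 lower (median -0.03). The farthest were Rbm7, an RNA-binding protein (438, 927, 790 and 1512 reads, log2 ratio 0.93), and Hnrnpr (1684, 992, 1012 and 1189, -0.89). Of 34 cell cycle and mitosis genes 0 passed in either direction (median 0.04, and -0.07 with FPKM), and Birc5, the mitotic survivin, came nearest with 5023, 2866, 3026 and 1088 reads and a ratio of -0.94 (-1.02 with FPKM). Of 32 DNA replication genes 0 passed (median 0.03, and -0.04 with FPKM). Of 39 nuclear respiratory chain genes and 13 mitochondrial genome genes 0 passed, with medians of 0.06 and -0.05. The first of these was -0.00098 with FPKM. Cytosolic ribosomal protein genes shifted little but evenly, with 80 of 82 above 0 and a median of 0.20, for example Rps20 with 17418, 26389, 16863 and 23567 reads. By the 2-fold rule 1 was higher, the muscle paralogue Rpl3l (0, 26, 8 and 0 reads). Without Rpl3l and the pseudogene Rps12l1, which the name pattern also caught, 78 of 80 were above 0 and the median was 0.20. Their median under OGD was -0.15. Of 75 mitochondrial ribosomal protein genes 52 were above 0 (median 0.19) and 0 passed. Of 21 long noncoding RNAs 2 were lower and 0 higher (median 0.25). The lower ones, Jpx (41, 0, 7 and 0 reads) and Ftx (52, 7, 67 and 17), are both encoded in the X inactivation centre. In normal culture both reached the floor only through the control library, where they could only come out lower.

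**Figure D4:**
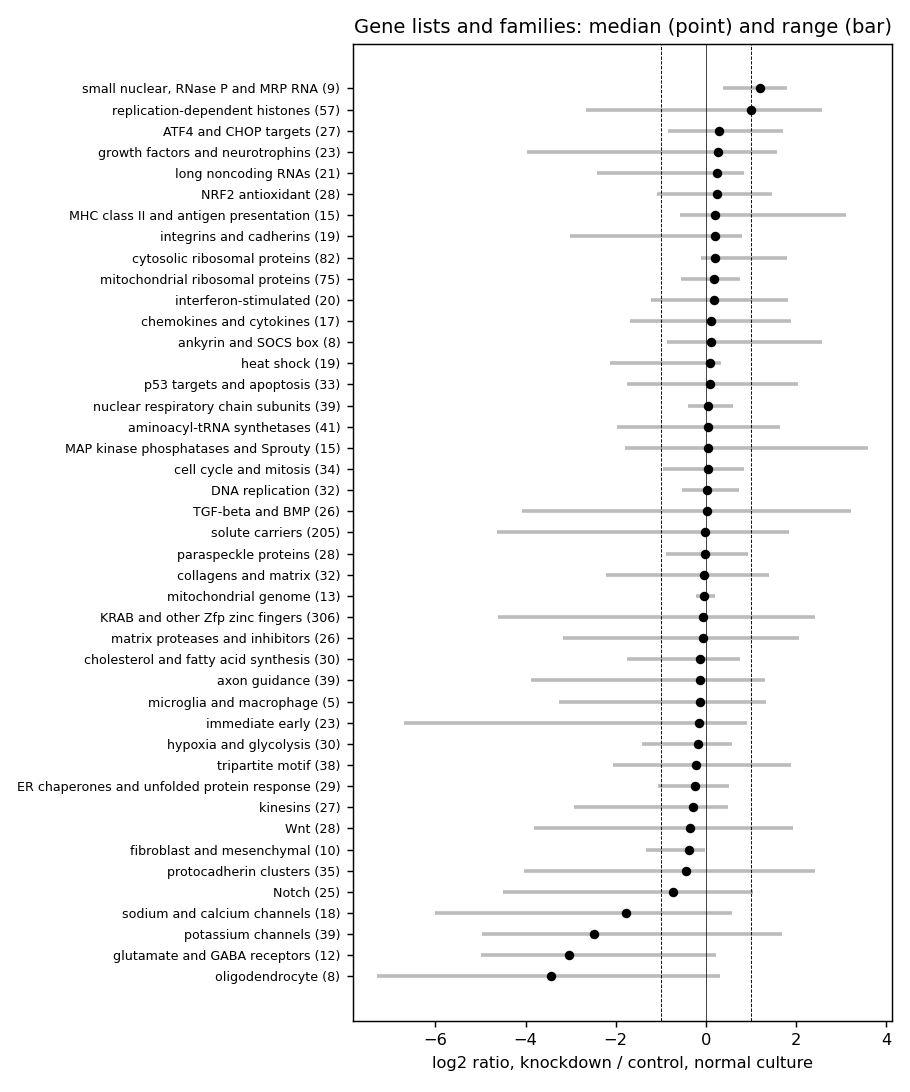
Median (point) and range (bar) of the log2 ratio of knockdown to control in normal culture for each list or family with at least 5 remaining genes, with the number of genes in brackets. Dashed lines mark 2-fold. Medians run from -3.44 for oligodendrocyte markers to 1.20 for small nuclear RNAs, and those of 10 groups (microglia, MAP kinase phosphatases, TGF-beta and BMP, p53, cell cycle, DNA replication, nuclear respiratory chain, Zfp, solute carriers, ankyrin and SOCS box) took the other sign in at least 1 other setting.

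The OGD pair is the only other measurement of the lentivirus, and it shares no library with the normal pair. Under OGD 1304 of 13252 genes were higher (9.84%) and 570 lower (4.30%). Of the 897 genes higher in normal culture, 112 (12.5%) were also higher under OGD, which was 8.59% of the OGD list, and 49 (5.46%) were lower there. For 379 of them the OGD pair did not reach the floor. Among the 11250 remaining genes within 2-fold in normal culture, 391 (3.48%) were higher and 373 (3.32%) lower under OGD. Of the 1794 remaining lower genes 87 were lower in both cultures (4.85%), or 15.3% of the OGD list, and 921 did not reach the OGD floor. None of the 1794 could be 2-fold higher under OGD, since such genes had been set apart.

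Genes in the same direction in both cultures with the largest smaller ratio were named by rule. On the higher side, Des, an intermediate filament protein of muscle, held 91, 378, 30 and 292 reads, 3.79-fold higher in normal culture (3.00 to 4.81) and 7.63-fold under OGD (5.23 to 11.5). Hist1h3a was 4.48-fold and 4.27-fold higher. Traf1, an adaptor of TNF receptors, held 50, 251, 3 and 34 reads, Plcxd2 held 25, 124, 44 and 208, and Hivep2, a zinc finger transcription factor, held 79, 316, 81 and 286. In Hivep2 the control libraries lay close together and so did the knockdown libraries, although with FPKM its log2 ratio in normal culture was 0.99, under 2-fold. Cd74, Dusp2 and Matn3 completed the 8.

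On the lower side, Spon2, a secreted matrix protein, held 2017, 469, 951 and 266 reads, 4.72-fold lower in normal culture (4.26 to 5.23) and 4.56-fold under OGD (3.98 to 5.24). Aqp1, the water channel, held 520, 135, 496 and 131 reads, 4.23-fold (3.49 to 5.14) and 4.83-fold lower (3.98 to 5.90). The Aqp1 levels of the 2 control libraries lay close together, and so did those of the 2 knockdown libraries. Medag, a gene of adipocyte differentiation, held 1117, 373, 291 and 88 reads. The matrix protein genes Fmod (220, 0, 70 and 8 reads) and Abi3bp (118, 14, 70 and 21) were lower in both pairs, as were Fam189b (280, 60, 81 and 7), Nol8 (175, 8, 81 and 16) and Dnaic2 (111, 6, 38 and 6). These 16 genes were chosen for being 2-fold apart in the same direction within each pair, so that shared direction restates the choice. Across pairs, both knockdown libraries lay on the same side of both control libraries in all but Traf1 and Medag. In Traf1 the control library of normal culture was above the knockdown library under OGD. In Medag the control OGD library was below the knockdown library of normal culture. In normal culture Dusp2 and Matn3 reached the floor only through the knockdown library, where they could only come out higher. Fmod, Abi3bp, Nol8 and Dnaic2 reached it only through the control library, where they could only come out lower.

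**Figure D5:**
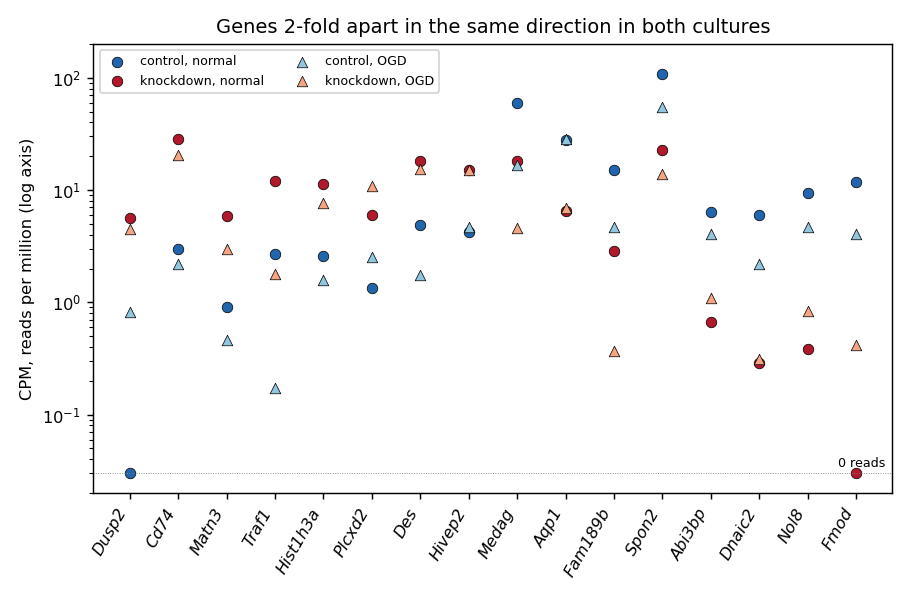
CPM (log axis) in each of the 4 libraries for the 8 genes with the largest ratios higher in both cultures (left) and the 8 lower in both (right). Circles are normal culture, triangles OGD, blue control and red knockdown, and points at the dotted line stand for 0 reads. Symbols overlap where libraries are alike, as for Aqp1.

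The groups also differed in features that were not used directly in choosing them. The 2-fold calls depended on read level, the groups were not matched for it, and its part in these features was not tested. Over the longest annotated transcript of protein-coding genes, median GC content was 48.3% for higher genes, 54.8% for remaining lower genes high only in the control library, 49.6% for the other lower genes, 52.4% for genes set apart and 49.7% for genes within 2-fold. Median transcript length was 2870 bases for higher genes and 3411 for genes within 2-fold. Of the higher genes 63.7% were protein coding, against 89.4% of those within 2-fold and 95.03% of those set apart. These are descriptions over genes, which are not replicates.

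The authors' deposited table marks 60 genes as up and 859 as down in this comparison. Its adjusted p-value was below 0.05 for 14 higher genes and 463 lower ones, of which 228 were among the genes set apart and 228 among the remaining lower genes. That p-value rests on 1 library a side. In the authors' deposited table the protein-coding higher genes were Hmox1 (adjusted p-value 1.21e-10), Cyp1b1 (1.06e-06), Lars2 (8.00e-18), Ftl1 (0.00153), Hmga1 (0.00517) and Slc48a1 (0.0149). The other 8 were ribosomal RNA, signal recognition particle RNA and clone or predicted genes. Ftl1, a ferritin light chain, held 68747, 113803, 111870 and 190470 reads, and Slc48a1, a haem transporter, held 4681, 9241, 2659 and 4542. Both lay under 2-fold with log2 ratios of 0.59 and 0.85, as did Hmga1, a chromatin architectural protein, at 0.91.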

How the data were processed

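RNA from HT22 cells was sequenced in 4 libraries, 1 library a group. Per the labels' protocols, total RNA was fragmented, reverse transcribed, marked with deoxy-UTP on a single strand and amplified by PCR. Reads were aligned with TopHat2 to mm10, per the submitters' processing notes. The counting program, annotation and use of strand are not stated in the sources used here, and overlapping and antisense genes may share reads.

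Per the file headers, the authors deposited size-factor scaled counts (a signal per library), the fold ratio and log2 ratio, and p-values before and after adjustment. A further pair of deposited columns was read as FPKM from its values. Columns were matched to libraries by sample number, and 0 value columns lacked a sample. Tables that pair libraries across cultures were not used here. The deposited signal gave back whole reads, 100% of values being whole at a tolerance of 1e-06, with size factors of 0.955, 1.05, 0.885 and 1.13. No count test was run, since each group holds 1 library. Of 20089 gene IDs, 19912 matched GENCODE mouse release 21, used for names, coordinates and transcripts, and promoters came from the RefSeq table for GRCm38.p6.

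Ratios used 10 added and a floor of 20, and intervals are 95%. Folds against 0 reads, called bounds, put 3 reads in place of 0 and leave out counting error in the other library. Alternatives were 1 or 50 added, no floor or a floor of 100, and scaling by total reads, TMM (edgeR 4.0.16 in R 4.3.3) or FPKM. The rest used Python 3.11.15, numpy 2.4.6, pandas 2.3.3, scipy 1.17.1 and matplotlib 3.10.9, and the scripts were tested on simulated data. The 34 lists and 14 name-pattern families held 889 listed symbols, of which 39 were unmatched. The members and lists were chosen with earlier results of these data known.

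Genes were named by rule among those with at least 100 scaled reads: the 15 highest and 15 lowest remaining, leaving out clone, predicted and small-RNA names, up to 4 a list with the largest ratio at any level above the floor, 8 a direction in both cultures, 10 set apart, and Neat1 and Malat1. Numbl, Cyp1b1, Ftl1, Slc48a1, Hmga1, Hspa5, Dnajc3, the ribosomal and 7SL RNA genes and the histone genes beyond the first 4 were named after their values were seen.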

Additional observations from a re-analysis of the deposited data

Results flagged for a closer look

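Knockdown ratios in normal culture and under OGD had opposite directions for some genes, and since each culture holds 1 library per lentivirus the difference was not tested. Lower in normal culture and higher under OGD by 2-fold were 584 genes, and higher in normal culture and lower under OGD were 49. The small nuclear, RNase P and RNase MRP RNA list had a median of 1.20 in normal culture and -3.66 under OGD. Among its members Rpph1 stood at 1.26 and -4.85, Rmrp at 1.45 and -4.16, and Scarna2 at 1.45 and -1.12. Lars2 stood at 1.42 and -3.74, and the class II gene H2-DMb2 at 1.13 and -1.20 with at most 34 reads in a library.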

How the results depend on the processing

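With 50 added, 205 genes were higher, 1425 lower and 156 set apart, with 12 higher and 26 lower in both cultures. With a floor of 100 these counts were 353, 1321 and 127, with 1194 remaining lower, 30 higher in both and 36 lower in both. With 1 added, 175 were higher in both cultures. With FPKM 283 were set apart. Without the genes that were lower and high only in the control library of normal culture, a choice made once the data had been seen, 897 were lower, 241 of them set apart and 656 remaining, and 56 were lower in both. The smaller counts with a floor of 100 follow from fewer genes being compared (11466), and those without the control-only genes follow from their removal. For the other settings the cause was not tested. Scaling by total reads gave 842 higher and 2458 lower, and TMM 903 and 2378. Of 229 named genes 0 took the other sign with total reads or TMM, 2 did with FPKM (Asb1 and Slc1a3), and 34 were no longer 2-fold with 50 added. With 1 library a group, none could be left out. No paired analysis was possible because the labels give no replicate numbers and each group holds 1 library.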

Other observations

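Some families not described above held a few genes apart from their group. Of 205 remaining solute carriers 34 were lower and 4 higher, and 18 of the 34 were high only in the control library of normal culture, such as Slc30a3, a vesicular zinc transporter (251, 1, 2 and 9 reads). Of the 34, 20 reached the floor only through that library. Of 26 kinesins 3 were lower and 0 higher (median -0.27). Of 39 axon guidance genes 7 were lower and 2 higher, among them the repellent Slit1 (130, 0, 1 and 8 reads) and its receptor Robo1 (108, 0, 0 and 7). Of the 7 lower ones, 4 reached the floor only through the control library of normal culture. Of 38 tripartite motif genes 7 were lower and 3 higher, and Trim24, a nuclear receptor cofactor, held 123, 435, 136 and 186 reads. Pars2, the mitochondrial prolyl-tRNA synthetase, held 106, 385, 63 and 97 reads, while the mitochondrial methionyl-tRNA synthetase gene Mars2 held 372, 185, 89 and 100.

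Phosphatases and inhibitors of MAP kinase signalling did not follow Dusp2. Of 15 compared 4 were lower and 1, Dusp2, was higher, with a median of 0.05 that was -0.02 with 50 added. Dusp8 held 813, 261, 383 and 348 reads, Dusp1 held 730, 347, 1673 and 3080, and Spry4, an inhibitor of receptor tyrosine kinase signalling, held 30, 2, 17 and 30. Among 23 remaining immediate early genes 4 were lower and 0 higher (median -0.15), with the nuclear receptor genes Nr4a2 at 114, 31, 33 and 37 reads and Nr4a3 at 123, 41, 25 and 39. In both, the control library of normal culture was the high one. Under OGD 22 of these 23 genes reached the floor, with a median of 0.84, 8 higher and 0 lower.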
